A study of Mus musculus with 2 samples.

Results

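Transcripts of the protein complexes of oxidative phosphorylation were followed in cells of the mouse uterus, separately for the subunits encoded by the mitochondrial genome and for those encoded in the nucleus. Members were taken by gene symbol: mitochondrial genes beginning with mt-Nd, mt-Co, mt-Cytb or mt-Atp, and nuclear genes of the Ndufa, Ndufb, Ndufc, Ndufs, Ndufv, Sdh, Uqcr, Cox (4 to 8) and Atp5 families. This gave 98 of the 32285 genes of the annotation, 13 of them mitochondrial and 85 nuclear. Complex I had 7 mitochondrial and 36 nuclear members, complex II 4 nuclear members, complex III 1 and 8, complex IV 3 and 20, and complex V 2 and 17. Ndufa4 and its relative Ndufa4l2 were placed in complex IV, with which the Ndufa4 protein is associated, and the complex I acyl carrier protein Ndufab1 lies outside the families named. Of the 85 nuclear members, 84 had at least 20 UMIs (unique molecular identifiers, which mark single captured transcripts) over the kept cells, and 1, the testis-type isoform Cox8c, had fewer.

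The mice of the DOX plus AMH group were given doxorubicin at 3 mg/kg together with anti-Müllerian hormone (AMH) at 0.75 mg/kg, and those of the DOX group doxorubicin at 3 mg/kg alone. Both groups therefore carried the drug, an anthracycline that damages DNA, and no untreated library was analysed here. Uteri were collected 4 h after treatment, those of 5 animals were pooled in each group, and each pool gave 1 droplet library read from the 3′ end of transcripts. The strain is not stated, and the series text gives postnatal day 25 and 2 weekly doses for a bulk experiment, without saying whether these animals followed that schedule. With 1 library a group there is no replicate spread and no difference was tested. Log2 ratios have DOX plus AMH on top and DOX below, and every interval in brackets is an exact 95% interval that covers counting error only.

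Oxidative phosphorylation is carried out in the inner mitochondrial membrane. Complexes I and II pass electrons from NADH and succinate to ubiquinone, complex III passes them to cytochrome c, and complex IV passes them to oxygen. Complexes I, III and IV pump protons, and complex V, the ATP synthase, uses the resulting gradient to make ATP. Mitochondrial DNA codes for a few core subunits, all others are nuclear, and the messages from the mitochondrial genome are transcribed as long precursors that are cut and polyadenylated inside the organelle. Among the transcription factors known to bind promoters of nuclear subunits are NRF1, GABP of the ETS family, and YY1.

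The libraries held 97887259 UMIs over 8083 barcodes in DOX plus AMH and 129530270 over 9258 in DOX. After filtering, 6738 cells of DOX plus AMH and 7343 of DOX were kept, with medians of 10100.5 and 13710 UMIs. Cells were assigned to classes by marker genes that include no member, and 9 classes with at least 50 cells in each library were compared, holding 5121 and 6391 cells. Stromal-like cells were the most numerous (3145 in DOX plus AMH and 4467 in DOX), followed by smooth muscle-like cells (891 and 861), and the smallest compared class was that of lymphocyte-like cells (71 and 72). All markers of a class were counted at least 20 times in its cells in both libraries, except in dendritic-like cells, where 11 of 12 were. Squamous-like cells, 416 in DOX plus AMH and 6 in DOX, were not compared. Markers of erythroid cells summed to 85.1 CPM in DOX plus AMH and 12.3 CPM in DOX in stromal-like cells, and squamous markers to 56.8 and 6.23 CPM. Their part in the results was not tested. The libraries shared 17 barcode sequences, 13 of them among kept cells.

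The overlap of neighbouring mitochondrial genes is shown because the counts of each pair are compared below. The messages for the complex V subunits mt-Atp8 and mt-Atp6 overlap by 43 bases, at chrM:7927-7969 on the plus strand (GRCm38, GENCODE M21), and lie on a shared transcript. In the sequence of the overlap, the capitals mark the start codon of mt-Atp6 and the last codon of mt-Atp8.
mt-Atp8/mt-Atp6 overlap: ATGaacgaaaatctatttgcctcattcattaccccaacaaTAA
The complex I genes mt-Nd4l and mt-Nd4 overlap by 7 bases in the same way, at chrM:10167-10173. How reads inside an overlap were assigned is not given in the sources used here.

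Promoter windows of 300 bases, 250 before and 50 after the start of the gene, were found in RefSeq (GRCm38.p6) for 69 of the 85 nuclear members, in 74 windows. Both strands were searched for a core of the NRF1 site (CGCATGCG, which reads the same on both strands), an ETS core (CCGGAAG) and a YY1 core (AAGATGGCG). The NRF1 core was in 12.2% of the members' windows, beside 1.87% of all 32851 windows and 2.52% of those of protein-coding genes. For the ETS core the shares were 23.0%, 8.86% and 11.6%, and for the YY1 core 9.46%, 1.40% and 1.83%. At least 1 of these motifs was in 27 members and at least 2 in 5. A match is a string of letters in the window, not a measured binding site. The windows below belong to Atp5j (coupling factor 6 of complex V), which held all 3 motifs in the window shown, to Cox6a1 and Uqcr11, which held NRF1 and ETS cores and were higher in DOX plus AMH in 8 of 9 classes (7 for Cox6a1 under TMM), and to Cox5a, which held none and was lower in 7 of 9. These genes were picked to show the motifs, and other members run the other way: Atp5j was higher in 5 classes and lower in 4, Atp5h, with an ETS core, was lower in 6 of 9, and Ndufa3 and Sdha, with none of the motifs, were higher in 9 of 9. Capitals mark the motifs, which do not overlap one another. The ETS core of Cox6a1 lies on the other strand.
Atp5j, chr16:84834927-84835226, minus strand: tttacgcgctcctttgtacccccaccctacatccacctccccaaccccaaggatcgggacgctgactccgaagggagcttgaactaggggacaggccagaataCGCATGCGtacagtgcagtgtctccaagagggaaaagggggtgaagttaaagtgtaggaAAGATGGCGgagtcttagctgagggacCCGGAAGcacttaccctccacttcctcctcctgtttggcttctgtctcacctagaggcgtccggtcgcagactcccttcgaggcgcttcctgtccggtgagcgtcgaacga
Cox6a1, chr5:115348909-115349208, minus strand: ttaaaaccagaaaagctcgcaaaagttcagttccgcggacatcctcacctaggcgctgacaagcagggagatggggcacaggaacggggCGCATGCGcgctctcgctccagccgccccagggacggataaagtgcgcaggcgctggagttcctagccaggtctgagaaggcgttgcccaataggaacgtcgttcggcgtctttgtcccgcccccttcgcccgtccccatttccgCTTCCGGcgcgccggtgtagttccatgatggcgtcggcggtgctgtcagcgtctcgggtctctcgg
Uqcr11, chr10:80406772-80407071, minus strand: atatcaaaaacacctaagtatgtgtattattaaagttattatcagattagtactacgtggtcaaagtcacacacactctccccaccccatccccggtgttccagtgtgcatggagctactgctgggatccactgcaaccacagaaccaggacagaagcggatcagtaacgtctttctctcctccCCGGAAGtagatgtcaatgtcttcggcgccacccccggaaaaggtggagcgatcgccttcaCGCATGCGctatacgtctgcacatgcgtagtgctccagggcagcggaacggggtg
Cox5a, chr9:57520982-57521281, plus strand: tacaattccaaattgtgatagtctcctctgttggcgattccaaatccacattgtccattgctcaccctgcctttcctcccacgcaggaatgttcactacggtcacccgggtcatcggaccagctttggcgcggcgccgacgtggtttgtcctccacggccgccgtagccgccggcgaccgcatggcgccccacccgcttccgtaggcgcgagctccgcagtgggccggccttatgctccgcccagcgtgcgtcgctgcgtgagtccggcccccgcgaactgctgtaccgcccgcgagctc

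The classes differed in how much of their captured RNA was devoted to these complexes, and smooth muscle-like cells, the contractile cells of the myometrium, stood highest for the nuclear subunits. There the 85 nuclear members summed to 3.08% of UMIs in DOX plus AMH and 2.98% in DOX, against 1.80% and 1.80% in stromal-like cells. The other classes lay between 1.97% and 2.39% in DOX plus AMH and between 1.82% and 2.37% in DOX. The mitochondrial subunits were highest in epithelial-like cells of DOX plus AMH, at 7.19%, and in smooth muscle-like cells of DOX, at 8.38%. They were lowest in dendritic-like cells, at 3.20% in DOX plus AMH and 3.64% in DOX. Dendritic-like cells thus held 1.34 mitochondrial UMIs per nuclear subunit UMI in DOX plus AMH and 1.58 in DOX, while stromal-like cells held 3.13 and 3.45. Red cells lose their mitochondria as they mature, and the 83 erythroid-like barcodes of DOX plus AMH still held 4.75% mitochondrial UMIs and 1.52% nuclear subunit UMIs. Whether these barcodes were mature red cells was not tested, and the leading genes of erythroid-like cluster 20 include Mmp12 and Gpnmb beside globins. The part of free RNA in the levels of the other classes was not tested.

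Of 77 nuclear members with at least 20 UMIs in each of the 9 classes, 47 had their highest level, in CPM (counts scaled to a common library total over all genes), in smooth muscle-like cells, and for 42 of these that class was highest in both libraries. Levels between classes differed by a median of 2.02-fold from the highest to the lowest class. The widest spread was that of Cox5a, a nuclear accessory subunit of complex IV, at 564 CPM over both libraries in macrophage or monocyte-like cells and 131 CPM in stromal-like cells, or 4.31-fold. Cox6c, another complex IV subunit, was 2405 CPM in smooth muscle-like and 747 CPM in epithelial-like cells. Uqcrq of complex III was 512 CPM in macrophage or monocyte-like cells and 170 CPM in stromal-like cells. Ndufs4, an accessory subunit of complex I, was nearly even, with 1.28-fold between its highest and lowest class. The 3′ counts are not scaled by transcript length, so levels are set side by side for a gene across classes and not between genes.

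**Figure D1:**
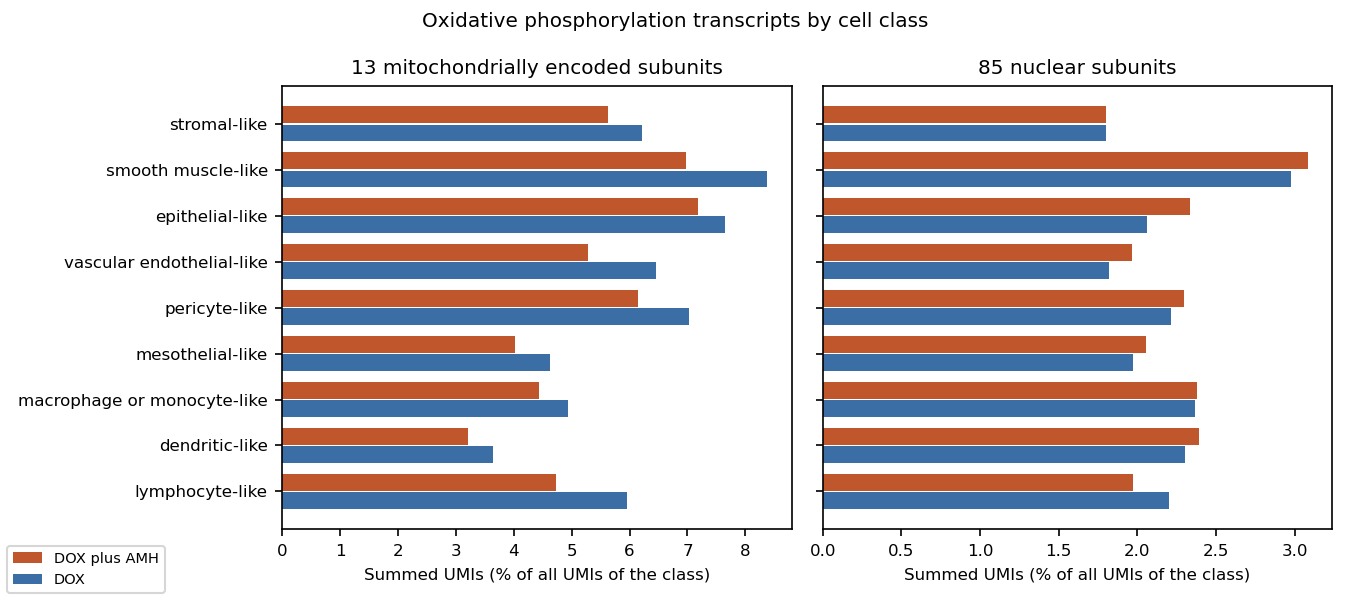
Summed UMIs of the 13 mitochondrially encoded and the 85 nuclear subunits as a percentage of all UMIs of each class, with DOX plus AMH above DOX. Mitochondrial bars are shorter for DOX plus AMH in all 9 classes, and nuclear bars are longer or nearly equal in all but lymphocyte-like cells. Each bar is 1 library, and under TMM the nuclear ratio was above 0 in 4 of 9 classes.

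Transcripts of the mitochondrial genome made up a smaller share of UMIs in DOX plus AMH than in DOX in each of the 9 classes. In stromal-like cells the 13 subunits summed to 5.63% in DOX plus AMH and 6.21% in DOX, a log2 ratio of -0.14 (-0.14 to -0.14). In smooth muscle-like cells they summed to 6.98% and 8.38%, a log2 ratio of -0.26 (-0.27 to -0.26). The widest difference was in lymphocyte-like cells, with 4.73% and 5.96% (-0.34, -0.36 to -0.31). With a 10% limit on the mitochondrial share of a barcode, in place of 15%, it was -0.22, and that in vascular endothelial-like cells, at -0.25, was wider. The narrowest was in epithelial-like cells, with 7.19% and 7.64% (-0.09, -0.09 to -0.08). The other 5 classes ranged from -0.29 in vascular endothelial-like to -0.16 in macrophage or monocyte-like cells. Clusters drawn without the members gave the same direction in 18 of the 18 that had at least 50 cells in each library, 6 of them stromal-like.

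The direction held in 9 of 9 classes when levels were scaled over nuclear genes only and when they were scaled by TMM, which sets the middle of the gene ratios near 0. TMM moved all log2 ratios by -0.16 in stromal-like, -0.13 in smooth muscle-like, 0.13 in mesothelial-like, -0.10 in macrophage or monocyte-like and -0.13 in dendritic-like cells, and by less than 0.1 in the other classes. A stromal-like ratio between 0 and 0.16, or a smooth muscle-like ratio between 0 and 0.13, is therefore below 0 under TMM. Under it the mitochondrial ratio was -0.30 in stromal-like cells and -0.08 in mesothelial-like cells.

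Cells of the DOX library were deeper, and the mitochondrial share was lower in deep cells of both libraries, so the comparison was repeated within bands of depth. Among stromal-like cells of 5000 to 10000 UMIs the share was 5.95% in DOX plus AMH (1309 cells) and 7.20% in DOX (506 cells). Among those of 10000 to 15000 UMIs it was 5.63% and 6.46%, and among those over 20000 UMIs 4.77% and 5.68%. The libraries were closest in stromal-like cells of 1000 to 5000 UMIs, at 7.70% and 7.81%. Smooth muscle-like cells showed the same order, with 8.67% and 8.72% in the shallowest band and 7.37% and 9.37% between 5000 and 10000 UMIs. Within every band the summed share was lower in DOX plus AMH in both classes. The median over stromal-like cells of 1000 to 5000 UMIs was the exception, at 7.53% in DOX plus AMH and 7.38% in DOX.

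**Figure D2:**
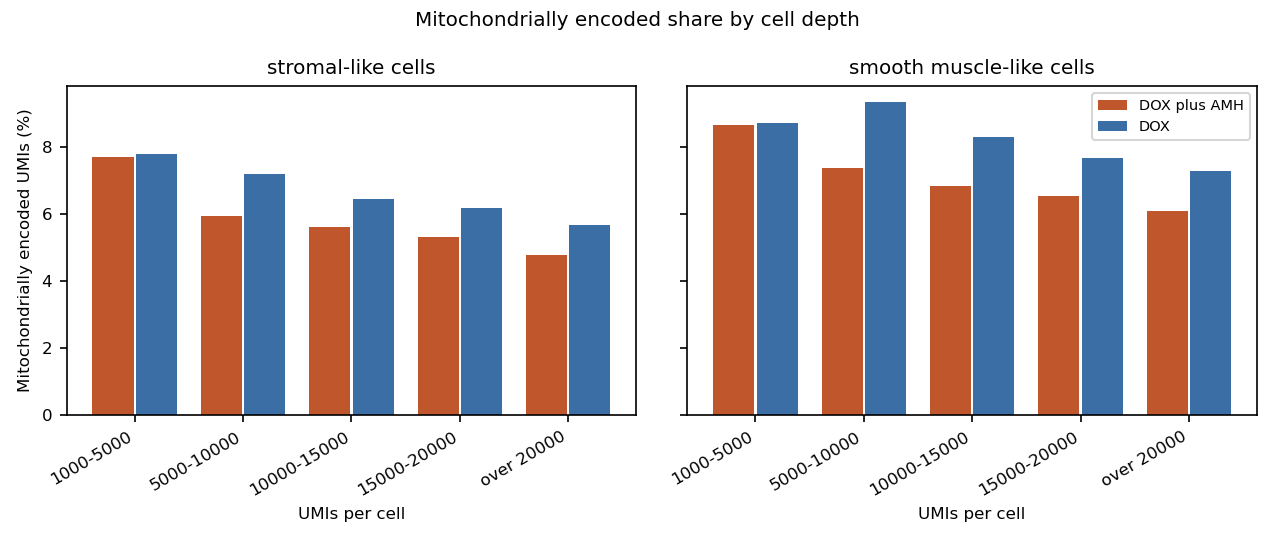
Mitochondrially encoded UMIs as a percentage of all UMIs in cells of the stromal-like and the smooth muscle-like class, grouped by UMIs per cell, with DOX plus AMH left of DOX. The pair is nearly level at 1000 to 5000 UMIs (7.70% and 7.81% in stromal-like cells) and apart in every deeper band.

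Barcodes over 15% mitochondrial UMIs were removed, and all 13 mitochondrial genes of the annotation are members, so this limit acted on the members themselves. It removed 317 barcodes of DOX plus AMH, 4.29% of those that passed the limits on UMIs and genes, and 538 of DOX, or 6.47%. These barcodes were shallow, with medians of 2537 and 2639.5 UMIs. The removed share was 8.65% and 14.7% in smooth muscle-like, 4.26% and 22.2% in vascular endothelial-like, 1.25% and 12.9% in lymphocyte-like and 8.72% and 15.2% in epithelial-like barcodes, and was the higher in DOX plus AMH for dendritic-like barcodes (6.90% and 1.91%). Stromal-like barcodes had 2.51% and 2.84%. With no such limit the log2 ratio was -0.14 in stromal-like cells and -0.31 in smooth muscle-like cells, and with a limit of 10% it was -0.14 and -0.21. The limit moved some smaller classes by over 1.5 times. The epithelial-like ratio of -0.09 was -0.17 with none and -0.0035 at 10%, the lymphocyte-like ratio of -0.34 was -0.53 and -0.22, and the dendritic-like ratio of -0.18 was -0.10 and -0.11. Whether damaged cells, whose cytoplasmic RNA leaks out, had a part in the mitochondrial difference was not tested.

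The lower mitochondrial share was spread over most of the genome's messages but not all of them. Among the 13 genes, mt-Nd2, mt-Nd4, mt-Co2, mt-Co3, mt-Atp6 and mt-Cytb were lower in DOX plus AMH in 9 of 9 classes under all 3 scalings. Among the genes that were lower, the largest difference was most often that of mt-Co3, a core subunit of complex IV, which had the lowest ratio of the 13 in 7 of 9 classes. It was 12220 CPM in DOX plus AMH and 14220 CPM in DOX in stromal-like cells (-0.22, -0.22 to -0.21), and 15280 and 19940 CPM in smooth muscle-like cells (-0.38, -0.39 to -0.37). In lymphocyte-like cells it was 10250 and 14290 CPM (-0.48).

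The most abundant messages after mt-Co3 followed it more weakly. mt-Atp6, the proton channel subunit of complex V, was 9531 CPM in DOX plus AMH and 10710 CPM in DOX in stromal-like cells (-0.17), and 11710 and 14410 CPM in smooth muscle-like cells (-0.30). mt-Cytb, the cytochrome b of complex III, was 8112 and 8951 CPM (-0.14) and 9384 and 11170 CPM (-0.25) in these classes. mt-Co1, the catalytic subunit of complex IV, was 7319 and 7860 CPM (-0.10) and 8439 and 9300 CPM (-0.14), and mt-Co2, which receives electrons from cytochrome c, 7651 and 8362 CPM (-0.13) and 9016 and 11120 CPM (-0.30). mt-Co1 was above 0 in 1 class, macrophage or monocyte-like cells, at 0.06.

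Complex I messages were divided. In stromal-like cells mt-Nd1 was 2524 CPM in DOX plus AMH and 2672 CPM in DOX (-0.08), mt-Nd2 2707 and 2890 CPM (-0.09), and mt-Nd4 3355 and 3800 CPM (-0.18). mt-Nd3 at 1271 and 1227 CPM (0.05), mt-Nd4l at 427.7 and 391.0 CPM (0.13), and mt-Nd5 at 840.5 and 774.5 CPM (0.12) were on the other side of 0, and under TMM these 3 turned around, to -0.11, -0.03 and -0.04. Across classes mt-Nd3 was above 0 in 5, mt-Nd4l in 6 and mt-Nd5 in 5 of 9, and under TMM each in 3. mt-Nd6, the only subunit coded on the other strand, was 119.0 and 105.7 CPM in stromal-like cells (0.17) and 159.6 and 190.3 CPM in smooth muscle-like cells (-0.25). It ranged from -0.33 in macrophage or monocyte-like to 0.43 in epithelial-like cells, where it was 72.1 and 53.6 CPM.

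Against the rest, mt-Atp8 was higher in DOX plus AMH in 9 of 9 classes, also under TMM and over nuclear genes, and its interval lay above 0 in 7 of them. It was 220.0 CPM in DOX plus AMH and 168.6 CPM in DOX in stromal-like cells (0.38, lower bound 0.34), and 241.4 and 202.9 CPM in smooth muscle-like cells (0.25, lower bound 0.16). Its neighbour on the same transcript, mt-Atp6, was lower in all 9. UMIs assigned to mt-Atp8 were 2.26% (2.21 to 2.31) of those of the pair in DOX plus AMH and 1.55% (1.52 to 1.58) in DOX in stromal-like cells, and 2.02% and 1.39% in smooth muscle-like cells. That share was higher in DOX plus AMH in 9 of 9 classes. For mt-Nd4l and mt-Nd4 the share of mt-Nd4l was higher in 8 of 9, with 11.3% and 9.33% in stromal-like cells, and was 10.5% and 10.8% in lymphocyte-like cells. A share within a pair does not depend on how the libraries are scaled.

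**Figure D3:**
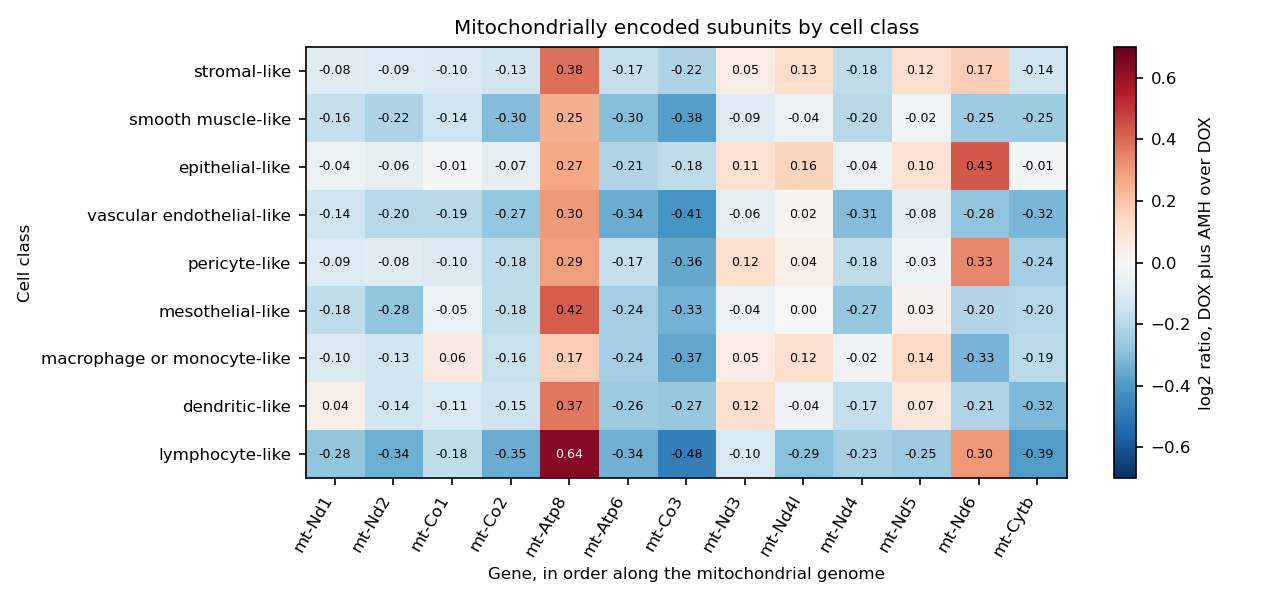
Log2 ratio of DOX plus AMH over DOX for each mitochondrially encoded subunit (columns, in order along the mitochondrial genome) in each class (rows), scaled to CPM over all genes. The column of mt-Atp8 is above 0 in all 9 classes and that of mt-Co3 below 0 in all 9; each cell compares 1 library with 1 library.

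By complex, the mitochondrial subunits of complex IV were 27190 CPM in DOX plus AMH and 30440 CPM in DOX in stromal-like cells (-0.16, -0.17 to -0.16), those of complex V 9751 and 10870 CPM (-0.16), and those of complex I 11240 and 11860 CPM (-0.08, -0.08 to -0.07). Complex I stood nearest to 0 among the 4 complexes in stromal-like, smooth muscle-like, vascular endothelial-like, pericyte-like, mesothelial-like, macrophage or monocyte-like, dendritic-like and lymphocyte-like cells. In epithelial-like cells its ratio was -0.0081, beside -0.0065 for mt-Cytb of complex III.

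Nuclear subunits did not share the mitochondrial pattern. Their summed level differed little between the libraries and was above 0 in 7 of 9 classes by CPM and in 4 of 9 under TMM. In stromal-like cells the sum was 1.80% in both libraries (log2 ratio -0.0027, -0.0071 to 0.0018), and in smooth muscle-like cells 3.08% in DOX plus AMH and 2.98% in DOX (0.05, 0.04 to 0.06). These were -0.16 and -0.08 under TMM. The equal stromal-like sum joined depth bands of opposite order. At 1000 to 5000 UMIs the stromal-like nuclear share was 1.36% in DOX plus AMH and 1.52% in DOX, and at 15000 to 20000 UMIs 1.94% and 1.80%. It was lower in DOX plus AMH in the bands below 10000 UMIs and higher in those above. In the 6 stromal-like clusters compared, the nuclear ratio ran from -0.02 in cluster 4 to 0.07 in cluster 10. Stromal-like cluster 23, with Top2a and Cenpf among its leading genes, held 28 cells in DOX plus AMH and 235 in DOX. It was too small to be compared, and the part of this difference in the stromal-like sum was not tested. Epithelial-like cells, at 2.34% and 2.06%, had the highest ratio by CPM (0.18, and 0.17 under TMM, where mesothelial-like cells had 0.19), and lymphocyte-like cells, at 1.97% and 2.20%, the lowest (-0.16).

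Vascular endothelial-like cells had 1.97% and 1.82% (0.11), mesothelial-like cells 2.05% and 1.97% (0.06), dendritic-like cells 2.39% and 2.30% (0.05), pericyte-like cells 2.30% and 2.22% (0.05) and macrophage or monocyte-like cells 2.38% and 2.37% (0.0084, -0.01 to 0.03). Under TMM the ratios of dendritic-like and macrophage or monocyte-like cells were below 0, at -0.08 and -0.09. Cells gated as pericyte-like belonged mainly to clusters 0 and 16, with 48.8% and 41.7% of them in DOX plus AMH and 28.4% and 56.0% in DOX. These clusters also hold cells outside the gate: 41.1% of the cells of cluster 0 and 90.0% of those of cluster 16 were gated as pericyte-like. Over all cells of each cluster, gated or not, the nuclear ratio was -0.06 and -0.12, on the other side of 0 from the class. In cluster 18, which held 77.6% and 89.1% of the dendritic-like cells and whose leading genes include the immunoglobulin genes Igkc and Ighm, it was -0.06. Among all 18 clusters compared, 12 had a nuclear ratio above 0.

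Over all kept cells the nuclear sum was 2.15% in DOX plus AMH and 1.98% in DOX (0.12), a wider difference than within stromal-like or smooth muscle-like cells, and 6 of 84 counted members were higher by 1.3-fold or more and 2 lower, beside 29.6% and 7.73% of 21019 genes. The libraries differed in their cells: stromal-like cells, which have the lowest level of the 9 compared classes, numbered 3145 of 6738 kept cells in DOX plus AMH and 4467 of 7343 in DOX. The 416 squamous-like cells of DOX plus AMH had 2.24%. In a whole-library value, more cells of a type and more RNA per cell cannot be told apart.

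Few nuclear members stood far apart in the main classes. In stromal-like cells 1 of 82 counted members lay 1.3-fold or more above its DOX level and 2 lay that far below, against 26.2% and 8.79% of all 17858 counted genes, with a median of 0.0052 for the members and 0.17 for all genes. In smooth muscle-like cells 2 of 82 were higher and 2 lower, against 22.9% and 11.1% of 14125 genes. Each share of members is below its background share. The background, here and in the other comparisons, is all genes with at least 20 UMIs and was not matched to the members in level. Ratios of genes with few UMIs carry more counting error, and the part of this in the lower shares was not tested. Under TMM the background in stromal-like cells became 16.5% and 14.0%, with 1 member higher and 3 lower, and in smooth muscle-like cells 14.7% and 15.7%, with 1 higher and 5 lower.

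Complex II, the succinate dehydrogenase, had the highest ratio of the 5 nuclear groups in stromal-like cells, at 231.0 CPM in DOX plus AMH and 211.6 CPM in DOX (0.13, 0.09 to 0.17), and in smooth muscle-like cells, at 350.6 and 310.0 CPM (0.18, 0.10 to 0.25). Its flavoprotein Sdha, which oxidises succinate, was 76.7 and 62.1 CPM in stromal-like cells (0.31, 0.23 to 0.38) and 105 and 90.1 CPM in smooth muscle-like cells (0.23). The iron-sulfur subunit Sdhb was 64.0 and 63.0 CPM (0.02) and 123.5 and 104.7 CPM (0.24). In macrophage or monocyte-like cells Sdha was 111 and 70.7 CPM (0.65, 0.29 to 1.00) while Sdhb was 81.3 and 113.0 CPM (-0.48, -0.83 to -0.13); these subunits of the same complex lay on opposite sides of 0.

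The nuclear subunits of complex I summed to 4914 CPM in DOX plus AMH and 4841 CPM in DOX in stromal-like cells (0.02) and to 8682 and 8408 CPM in smooth muscle-like cells (0.05). Among its catalytic subunits, Ndufs1, the largest iron-sulfur protein, was 36.8 and 30.9 CPM in stromal-like cells (0.25) and 55.5 and 48.1 CPM in smooth muscle-like cells (0.21). Ndufs7 (0.08 and 0.16) and Ndufv1, which binds NADH (0.0071 and 0.10), were near 0. The accessory subunit Ndufa8 was lower in both classes, at 86.0 and 99.97 CPM (-0.22) and 154.0 and 185.2 CPM (-0.27). Ndufa12 was 177 and 215 CPM (-0.28) and Ndufb5 239.7 and 275.8 CPM (-0.20) in smooth muscle-like cells, where Ndufa3 was 287.5 and 231.9 CPM (0.31) and Ndufv3 227.7 and 188.3 CPM (0.27). Ndufb4 was 141.5 and 116.3 CPM in stromal-like cells (0.28).

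Complex III was slightly lower in stromal-like cells, at 1731 CPM in DOX plus AMH and 1797 CPM in DOX (-0.05, -0.07 to -0.04), and level in smooth muscle-like cells, at 3073 and 3029 CPM (0.02, -0.0034 to 0.05). Its members were split. Uqcrq, a small membrane subunit, was 158.3 and 181.3 CPM in stromal-like cells (-0.20), whereas Uqcr11 was 243.6 and 215.9 CPM there (0.17) and 578.9 and 496.9 CPM in smooth muscle-like cells (0.22). The Rieske protein Uqcrfs1 was 68.2 and 68.2 CPM (0.0006) and 111.5 and 117.1 CPM (-0.07), and the core protein Uqcrc1 50.7 and 46.3 CPM (0.13) and 91.7 and 83.9 CPM (0.13).

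Complex IV summed to 6260 CPM in DOX plus AMH and 6245 CPM in DOX in stromal-like cells (0.0035, -0.0040 to 0.01) and to 11040 and 10570 CPM in smooth muscle-like cells (0.06). Cox5a, an accessory subunit, was lower in both main classes. It was 113.5 and 148.6 CPM in stromal-like cells (-0.39, -0.44 to -0.34), 189.9 and 244.7 CPM in smooth muscle-like cells (-0.37, -0.46 to -0.27), 257 and 289 CPM in epithelial-like cells (-0.17) and 532 and 596 CPM in macrophage or monocyte-like cells (-0.16). Its partner Cox5b was 241.7 and 247.1 CPM (-0.03) and 542.0 and 509.4 CPM (0.09) in these 2 main classes. Cox6a1, the widely expressed form of subunit VIa, was 442 and 333 CPM in smooth muscle-like cells (0.41, 0.34 to 0.48), 173.9 and 154.1 CPM in stromal-like cells (0.17) and 197 and 131 CPM in vascular endothelial-like cells (0.58, 0.36 to 0.80).

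The ATP synthase subunits summed to 4864 CPM in DOX plus AMH and 4938 CPM in DOX in stromal-like cells (-0.02) and to 7695 and 7480 CPM in smooth muscle-like cells (0.04). The catalytic head proteins Atp5a1 (206.5 and 200.4 CPM, 0.04) and Atp5b (171.8 and 167.8 CPM, 0.03) were level in stromal-like cells, with Atp5c1, the central stalk, at 287.8 and 308.3 CPM (-0.10). The small subunits Atp5md and Atp5mpl, which help to join synthase dimers, were higher: Atp5md was 205.6 and 171.1 CPM in stromal-like cells (0.26) and 424.7 and 338.2 CPM in smooth muscle-like cells (0.33). Atp5mpl was 241.6 and 199.8 CPM in stromal-like cells (0.27). Atp5h, of the peripheral stalk, was 310.5 and 362.2 CPM in stromal-like cells (-0.22).

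**Figure D4:**
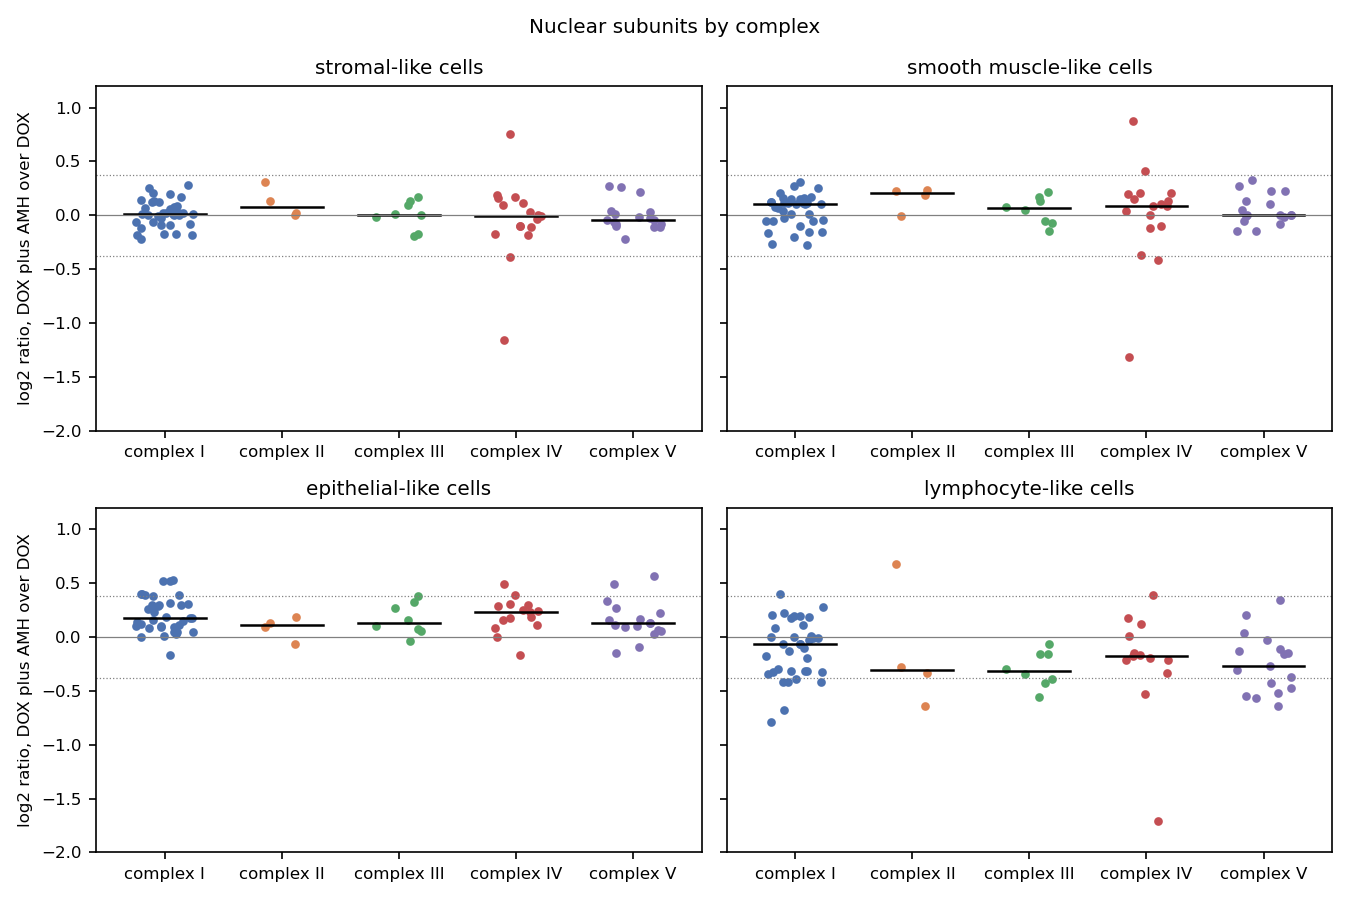
Log2 ratios of DOX plus AMH over DOX for nuclear subunits with at least 20 UMIs, by complex, in 4 classes; each point is a gene, black lines are medians, and dotted lines mark 1.3-fold. Most points lie within the dotted lines in the stromal-like and the smooth muscle-like panel, and 18 of 78 lie below them in lymphocyte-like cells.

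Few single members kept 1 direction across classes. Of the 77 nuclear members counted in all 9 classes, 6 were above 0 in every class by CPM, namely Ndufa1, Ndufa3, Ndufc1, Sdha, Cox6c and Atp5mpl, and 0 were below 0 in every class. Under TMM 3 of them were, Ndufa3, Sdha and Atp5mpl. Cox6c differed by little but had its interval above 0 in 8 of 9 classes, from 0.03 in stromal-like (1455 and 1423 CPM) to 0.28 in epithelial-like cells (820 and 673 CPM). Atp5f1, a peripheral stalk subunit of complex V, and Uqcrq were below 0 in 8 of 9, and in 7 of 9 under TMM. The classes come from the same pair of libraries, so they are not repeats of the comparison.

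By CPM, epithelial-like cells were the class with the most members higher, 11 of 80 by 1.3-fold or more and 0 lower by as much, beside 19.2% and 10.8% of 14344 genes, and 72 of 80 were above 0. Under TMM 6 of 80 were higher (18.2% of all genes), fewer than the 12 of 79 in mesothelial-like cells. The share of members higher is below the background share. The median of the members was 0.16 and that of all genes 0.02, and the share of all genes above 0 was not counted. Atp5md was 478 CPM in DOX plus AMH and 322 CPM in DOX (0.57, 0.51 to 0.63), Ndufa1 171 and 119 CPM (0.53, 0.42 to 0.63) and the complex I subunits Ndufv3 and Ndufa3 114.0 and 79.5 CPM and 216.3 and 151.4 CPM. At the low end was Cox5a, given above. Squamous markers summed to 598 CPM in DOX plus AMH and 220 CPM in DOX in this class, and 14.7% of its DOX plus AMH cells belonged to the squamous-like cluster 3. In the epithelial-like cluster 13 alone, with 119 and 262 cells, the nuclear sum was 2.29% and 2.03% (0.17) and the mitochondrial sum 7.48% and 7.69%.

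Lymphocyte-like cells went the other way, with 3 of 78 members higher by 1.3-fold or more and 18 lower, beside 24.2% and 23.4% of 6256 genes. The share of members lower is near the background and the share higher is under it, and 59 of the 78 were below 0. The median of the members was -0.18 and that of all genes 0.02, and the share of all genes below 0 was not counted. Ndufb9 of complex I was 163 CPM in DOX plus AMH and 261 CPM in DOX (-0.68, -1.10 to -0.27) and Atp5c1 250 and 390 CPM (-0.64, -0.98 to -0.31). Cox7a2l, which takes part in joining complexes III and IV, was 285 and 218 CPM (0.39) and Atp5mpl 353 and 279 CPM (0.34). The class rests on 71 and 72 cells with medians of 5617 and 5743.5 UMIs.

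In the remaining classes the members furthest out were often those of low level. In vascular endothelial-like cells 4 of 80 members were higher and 2 lower (background 19.1% and 13.1%), in pericyte-like cells 3 and 3 of 80 (23.8% and 17.9%), and in mesothelial-like cells 2 and 2 of 79 (17.3% and 29.0%), the last becoming 12 and 2 under TMM, where the background was 23.2% and 20.6%. Macrophage or monocyte-like cells had 6 higher and 5 lower of 79 (29.1% and 19.0%) and dendritic-like cells 5 and 2 of 78 (30.1% and 16.1%), which became 4 and 12 (23.4% and 23.8%) and 2 and 5 (22.4% and 22.1%) under TMM. None of these classes had a member share above its background share by CPM. Ndufs3, a complex I core subunit, was the lowest of the members abundant enough for ranking in macrophage or monocyte-like cells, at 69.2 and 98.5 CPM (-0.51), and in dendritic-like cells, at 55.1 and 76.3 CPM (-0.47).

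Other members at the ends of the ranking differed by a similar size. Ndufv3 was 197.9 CPM in DOX plus AMH and 134.1 CPM in DOX in macrophage or monocyte-like cells (0.56), and in dendritic-like cells Atp5a1 was 264.8 and 185.0 CPM (0.52) and Ndufa13 316.4 and 423.7 CPM (-0.42). In pericyte-like cells Ndufs1 was 51.3 and 33.7 CPM (0.61) and Sdhc, a membrane anchor of complex II, 100.7 and 68.2 CPM (0.56). In mesothelial-like cells Ndufa3 was 275.7 and 193.1 CPM (0.51), Ndufb6 158.7 and 116.2 CPM (0.45) and Ndufa9 25.2 and 40.6 CPM (-0.69). Ndufa3 was also among the highest in vascular endothelial-like cells, at 180.6 and 126.2 CPM (0.52).

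Tissue-restricted isoforms of complex IV marked particular cell classes. Cox4i2, an isoform of subunit IV known for its part in oxygen sensing in lung, and Ndufa4l2, a hypoxia-inducible relative of Ndufa4, were both pericyte-like transcripts here. Cox4i2 was 97.2 (84.1 to 111.8) CPM in DOX plus AMH and 136 (115 to 158) CPM in DOX in pericyte-like cells, and next in vascular endothelial-like cells, at 17.1 and 18.9 CPM. Ndufa4l2 was 175 (157.5 to 194) and 233 (207 to 262) CPM in pericyte-like cells and 26.9 and 36.1 CPM in vascular endothelial-like cells. In pericyte-like cells both were lower in DOX plus AMH, with log2 ratios of -0.48 (-0.79 to -0.17) for Cox4i2 and -0.41 for Ndufa4l2. Cluster 16, where Ndufa4l2 is among the leading genes, held 41.7% of the pericyte-like cells of DOX plus AMH and 56.0% of those of DOX, and the part of this difference in the ratios was not tested. In the other 7 classes Cox4i2 stayed at or under 7.50 CPM and Ndufa4l2 at or under 6.24 CPM, and these levels, like those in vascular endothelial-like cells, are under 0.2 times the pericyte-like level, where free RNA can contribute. This covers the stromal-like ratio of Cox4i2, 0.75 on 7.50 and 4.46 CPM, the highest among ranked members of that class.

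Cox6b2, a form of subunit VIb best known from testis, was expressed in smooth muscle-like cells at 179 CPM in DOX plus AMH and 239 CPM in DOX (-0.42, -0.51 to -0.32) and in mesothelial-like cells at 122 and 220 CPM (-0.85, -1.04 to -0.67). It was lower in DOX plus AMH in pericyte-like cells (50.8 and 76.6 CPM, -0.59), in vascular endothelial-like cells (14.6 and 30.4 CPM, -1.06) and in stromal-like cells (51.4 and 58.3 CPM). The order was the other way in dendritic-like cells (58.6 and 36.5 CPM, 0.68, 0.14 to 1.23) and in epithelial-like cells (16.5 and 13.4 CPM). Its levels in vascular endothelial-like, epithelial-like, macrophage or monocyte-like and lymphocyte-like cells are under 0.2 times the highest class. The counterpart Cox6b1 was 605.0 and 552.7 CPM in smooth muscle-like cells (0.13).

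Cox8b, the heart and skeletal muscle form of subunit VIII, was counted at 9.05 (7.16 to 11.3) CPM in DOX plus AMH and 4.933 (3.598 to 6.601) CPM in DOX in smooth muscle-like cells, on 78 and 45 UMIs (0.88, 0.33 to 1.44), and at no more than 1.98 CPM in any other class. Markers of skeletal muscle in that class, of which 2 of 6 were detected, summed to 144 and 245 CPM, in the opposite order, and their part in the result was not tested. The list includes Acta1, a leading gene of smooth muscle-like cluster 14, which held 40.4% of the class in DOX plus AMH and 41.6% in DOX. The sum therefore cannot tell skeletal muscle from these cells. The widely expressed form Cox8a was 1417 and 1415 CPM. Cox7a1, another muscle form, was lower in stromal-like cells, at 2.56 and 5.71 CPM (-1.16, -1.51 to -0.82), was 8.278 and 15.03 CPM in macrophage or monocyte-like cells and 2.44 and 2.19 CPM in smooth muscle-like cells. Its highest level was in none of these classes. The stromal-like and smooth muscle-like levels are under 0.2 times that of the highest class, where free RNA can contribute. Cox7a1 was above 0 in 3 of the 5 classes where it was counted, up to 0.49 in epithelial-like cells, with no interval above 0. Cox6a2, the muscle form of subunit VIa, was highest in lymphocyte-like cells, at 10.3 and 33.6 CPM on 5 and 17 UMIs (-1.70, -3.50 to -0.21). Its exons share bases with the gene Itgad on the other strand, and UMIs of these genes may not be told apart, because the use of strand is not given. Cox7b2 and Cox8c did not exceed 0.842 CPM in any class or library.

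**Figure D5:**
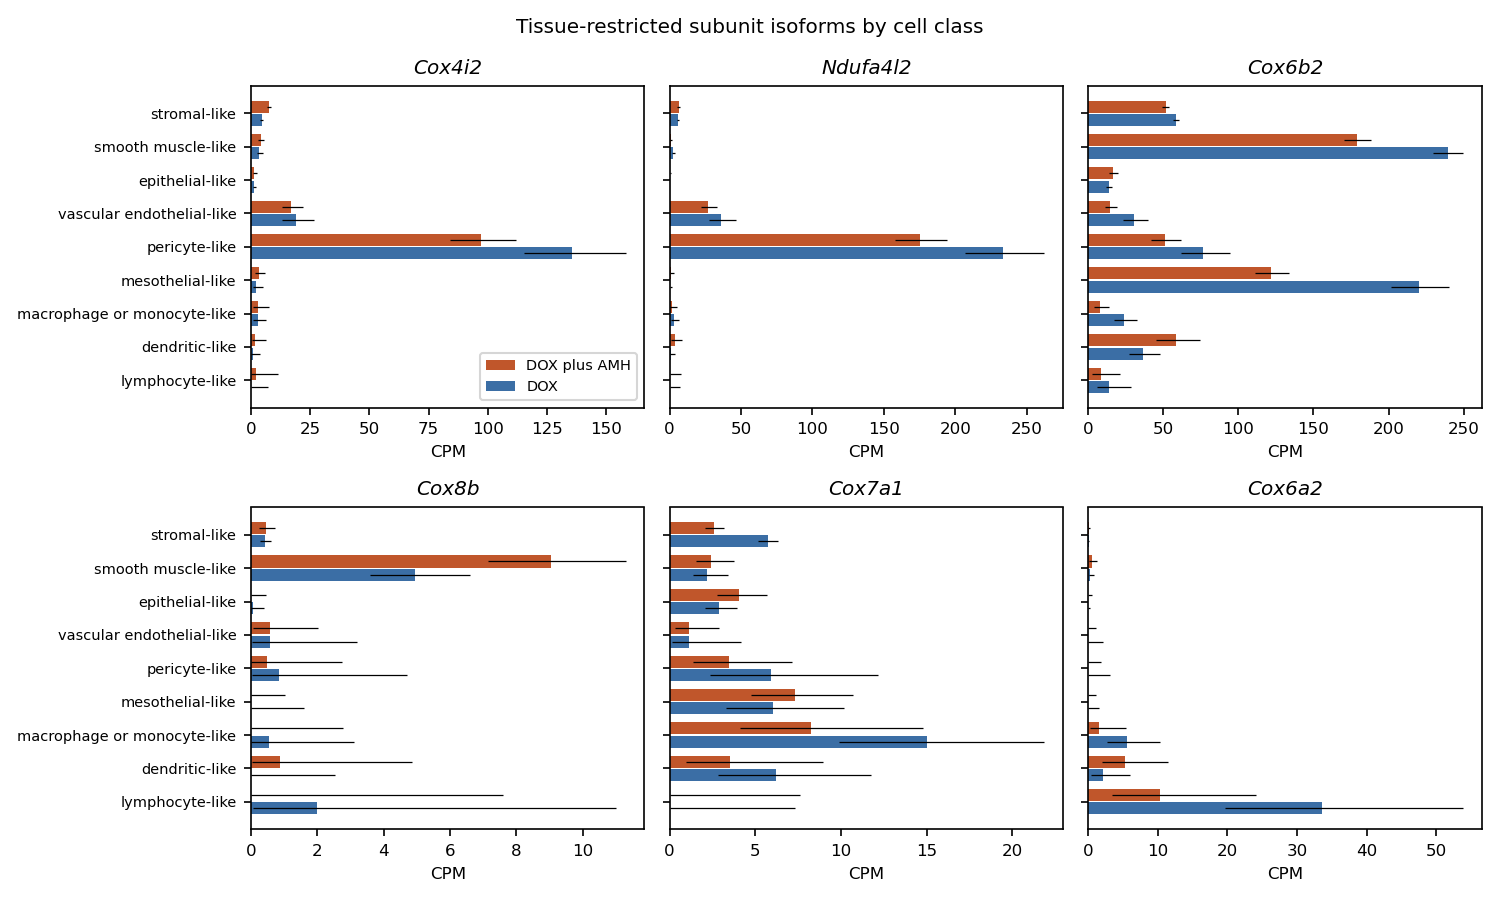
Levels in CPM of 6 tissue-restricted subunit isoforms in the 9 classes, with DOX plus AMH above DOX and exact 95% Poisson intervals that cover counting error only. Cox4i2 and Ndufa4l2 are highest in pericyte-like cells, Cox6b2 in smooth muscle-like and mesothelial-like cells and Cox8b in smooth muscle-like cells.

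The widely expressed counterparts differed by little in the main classes. In stromal-like cells Cox4i1 was 635.3 CPM in DOX plus AMH and 678.9 CPM in DOX (-0.10), Ndufa4 451.4 and 510.2 CPM (-0.18), Cox7a2 313.8 and 290.2 CPM (0.11), Cox7b 252.5 and 253.4 CPM (-0.0051) and Cox8a 655.1 and 702.5 CPM (-0.10). In smooth muscle-like cells Cox4i1 was 1142 and 1237 CPM (-0.12) and Ndufa4 1082 and 1050 CPM (0.04). Of the 7 counterparts, 0 were at least 1.3-fold apart in stromal-like cells and 1, Cox6a1, in smooth muscle-like cells.

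Genes that build or regulate the complexes were taken from 4 lists and are given for stromal-like cells, where 26.2% of all counted genes were higher by 1.3-fold or more and 8.79% lower. Of 49 assembly factors counted, 2 were higher and 1 lower. Sdhaf1, which inserts iron-sulfur clusters into complex II, was 21.2 CPM in DOX plus AMH and 30.6 CPM in DOX (-0.53, -0.65 to -0.40), and 35.3 and 58.4 CPM in smooth muscle-like cells (-0.73). Higd1a, a small regulator of complex IV, was 29.8 and 37.7 CPM (-0.34). Taco1, an activator of mt-Co1 translation, was 42.1 and 28.3 CPM (0.57), and Lyrm7, which handles the Rieske protein, 2.91 and 1.79 CPM (0.71, 0.31 to 1.10).

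Of the 24 genes that copy, transcribe or process mitochondrial DNA and its messages, 3 were higher and 0 lower, and 21 were above 0, with a median of 0.27 beside 0.17 for all genes. With that all-gene median more genes lie above 0 than below it, and the share of all genes above 0 was not counted. TMM moved every stromal-like ratio by -0.16. Polg2, the accessory subunit of the mitochondrial DNA polymerase, was 19.7 CPM in DOX plus AMH and 12.6 CPM in DOX (0.65, 0.50 to 0.79) and 20.1 and 10.1 CPM in smooth muscle-like cells (0.99). Fastkd5, an RNA processing factor, was 1.94 and 1.45 CPM (0.42, -0.05 to 0.89), and Hsd17b10, a subunit of mitochondrial RNase P, 91.19 and 98.97 CPM (-0.12). Top1mt, the mitochondrial topoisomerase, was 4.03 and 5.03 CPM (-0.32) and, in smooth muscle-like cells, 3.13 and 8.88 CPM (-1.50, -2.19 to -0.86). Tfam, which packs mitochondrial DNA and starts its transcription, was 28.9 and 27.0 CPM (0.10, -0.02 to 0.21), and was chosen for its role after the values were seen.

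Among 15 regulators of mitochondrial biogenesis, 5 were higher and 1 lower. Ppargc1a, a coactivator of respiratory genes, was 6.15 CPM in DOX plus AMH and 2.30 CPM in DOX (1.42, 1.11 to 1.73), and Ppargc1b 4.77 and 3.01 CPM (0.66). Both are under the level at which free RNA can contribute, and Ppargc1a was highest in epithelial-like cells, at 95.4 and 79.9 CPM (0.26). In smooth muscle-like cells it was 23.3 and 16.1 CPM (0.53). Esrra, a nuclear receptor that works with these coactivators, was 4.94 and 6.94 CPM (-0.49, -0.75 to -0.23). Among the factors of the promoter motifs, Nrf1 was 36.8 and 24.7 CPM (0.57), the ETS factor Gabpa 21.0 and 17.3 CPM (0.29) and Yy1 61.7 and 63.8 CPM (-0.05). The median of all genes in stromal-like cells was 0.17. By CPM, Nrf1 was above 0 in 5 of 9 classes, Gabpa in 8 and Yy1 in 2. Nrf1 and Gabpa were chosen after their values were seen. Esrrg, a receptor of the same family as Esrra, was chosen after its values were seen and was 89.0 and 6.61 CPM in epithelial-like cells. It was 12.95 and 7.311 CPM in the epithelial-like cells of cluster 13, and 473 CPM in the 51 DOX plus AMH cells outside it, beside 350 CPM in squamous-like cluster 3.

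Of 23 counted electron carriers and partners, 3 were higher and 0 lower. Slc25a4, the ADP and ATP carrier of muscle and heart, was 435.8 CPM in DOX plus AMH and 540.1 CPM in DOX (-0.31, -0.34 to -0.28) and 660.5 and 792.5 CPM in smooth muscle-like cells (-0.26). Etfb, which delivers electrons from fatty acid oxidation, was 111.7 and 139.7 CPM (-0.32). Coq8a and Coq4, needed for ubiquinone synthesis, were 7.56 and 4.66 CPM (0.70) and 10.4 and 7.94 CPM (0.38).

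In position, the nuclear members lie on 19 chromosomes, with 3 on X. Exons of 28 share bases with a gene on the other strand, and whether the counting used strand is not given in the sources used here, so UMIs of such neighbours may not be told apart. None shares exon bases with a gene on the same strand.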

How the data were processed

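Droplet libraries of pooled uteri, 1 for each of DOX plus AMH and DOX, were deposited as raw UMI counts per gene and barcode. The authors made these counts with Cell Ranger 7.0.0, per the file headers, on mm10, per the submitters' processing notes; the annotation release, the use of strand and the counting of intronic reads are not given in the sources used here. Barcodes with at least 1000 UMIs, 500 genes and at most 15% mitochondrial UMIs were kept, and doublets called by Scrublet in scanpy 1.11.5 (expected rate 0.08) were removed, 4.63% in DOX plus AMH and 5.65% in DOX. A class needed 3 of its markers and a second class at most 0.5 of the first; 973 and 787 cells were ambiguous and 26 and 45 had no class. Counts were summed by library and class and divided by the sum over all genes (CPM). Ratios carry exact binomial intervals, and levels exact Poisson intervals (scipy 1.17.1). The ratio intervals were run on simulated Poisson counts, the model they assume, so that run does not cover spread between cells or animals. Without replicates no test was made. Genes with at least 20 UMIs over both libraries were counted by a fold of 1.3.

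Genes named are the mitochondrial members, isoforms, their counterparts and a list of main catalytic and structural subunits, the 5 highest and 5 lowest nuclear ratios in each of the 2 main classes, stromal-like and smooth muscle-like (2 and 2 elsewhere) among genes of at least 100 UMIs, and the 2 highest and 2 lowest of each other list. Others were chosen after their values were seen: Uqcr11, Cox6c, Atp5f1, Ndufs4, Tfam, Nrf1, Gabpa, Yy1 where outside that rule, Esrrg, and values of named genes in further classes. A gene that this rule names is not reported here. A level under 0.2 times that of the highest class was marked as one to which free RNA can contribute. The members and lists were chosen with earlier results of these data known. Alternatives were other cell filters, doublets kept, scaling over nuclear genes or by TMM (edgeR 4.0.16), Leiden clusters (igraph 0.11.9) made without the members, cells of 5000 to 20000 UMIs, clusters of 1 library left out, no filter on low values, and a stricter marker gate chosen after seeing the data.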

Additional observations from a re-analysis of the deposited data

How the results depend on the processing

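The mitochondrial sum was lower in DOX plus AMH in every class that could be compared under each alternative, and the nuclear sum was not steady in direction. In the depth window only 5 of 9 classes could be compared. It left out epithelial-like, mesothelial-like, dendritic-like and lymphocyte-like cells. In stromal-like cells the mitochondrial log2 ratio, -0.1422 as reported, was -0.1447 with the stricter cell filter, -0.1544 in Leiden clusters, -0.1692 in cells of 5000 to 20000 UMIs, -0.1553 with the stricter marker gate, -0.1511 over nuclear genes and -0.3026 under TMM. In smooth muscle-like cells, -0.2635 as reported, it was -0.3058 with no mitochondrial limit, -0.211 with a 10% limit, -0.2117 with the stricter cell filter, -0.2557 with doublets kept, -0.2542 in Leiden clusters, -0.2745 in the depth window, -0.2737 with the stricter gate, -0.2854 over nuclear genes and -0.3912 under TMM. The epithelial-like ratio ranged from -0.1736 with no mitochondrial limit to -0.003 with the stricter cell filter. The lymphocyte-like ratio ranged from -0.534 to -0.2137 under the same settings. The stromal-like nuclear ratio, -0.0027 as reported, was -0.0184 in Leiden clusters, 0.0023 in the depth window, -0.0116 over nuclear genes and -0.1631 under TMM. The smooth muscle-like one, 0.0495 as reported, was 0.0579 with doublets kept, 0.0371 with the stricter gate, 0.0276 over nuclear genes and -0.0782 under TMM, where the sign turned. The macrophage or monocyte-like one, 0.0084 with an interval that spans 0, was below 0 under 4 of 10 alternatives, down to -0.0928 under TMM. Other signs that turned were vascular endothelial-like in the depth window (-0.003), pericyte-like in Leiden clusters (-0.0688), dendritic-like in Leiden clusters (-0.0624) and under TMM (-0.0753), and, under TMM in stromal-like cells, mt-Nd3 (-0.11), mt-Nd4l (-0.031) and mt-Nd5 (-0.0425). The TMM values differ by the shift of that scaling; for the other alternatives the cause was not tested. Classes with a higher nuclear sum numbered 3 of 5 in the depth window and 4 of 9 under TMM, against 7 of 9 as reported. Stromal-like members at least 1.3-fold higher, 1 as reported, numbered 2 in Leiden clusters and 4 with no filter on low values, and those lower, 2 as reported, 1 in the depth window. Of 884 values of single genes under alternatives, 744 stayed within the counting interval, 137 moved beyond it and 3 turned sign from a reported interval that excludes 0. Sign changes of values whose reported interval spans 0 are not among those 3.

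No paired analysis was possible because each group has 1 library. Depth limits the small classes most: with 71 and 72 lymphocyte-like cells, single-gene intervals there span wide ranges, and isoforms counted in fewer than 20 UMIs give no usable ratio.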
